A study of Mus musculus with 28 samples.

Results

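The comparison set 5 libraries of dorsal hippocampus from mice given C108 after auditory fear conditioning against 4 libraries from conditioned mice given vehicle, across all 16735 genes with enough counts to test. These 9 libraries were taken by the treatment in their titles from the 28 of the series. C108 is a ligand of the glucocorticoid receptor that is known here by its code name alone. All mice of both groups were male C57Bl6 and all went through auditory fear conditioning, in which an animal learns that a tone announces a shock, so that the groups differ by label in treatment only. The other libraries came from conditioned mice given C118 (another coded ligand, n = 5), RU486 (mifepristone, which blocks the glucocorticoid and progesterone receptors, n = 5) or Cort (the usual short name of corticosterone, n = 5), and from Basal mice with neither conditioning nor treatment (n = 4). They entered the fit to estimate the spread between libraries. The sources used here give no doses, times, ages or number of mice behind a library.

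The glucocorticoid receptor is a transcription factor held in the cytoplasm by heat shock proteins until it binds its hormone, after which it enters the nucleus and raises or lowers the transcription of its target genes. In the hippocampus it works beside the mineralocorticoid receptor, which binds the same hormone with higher affinity. Corticosterone released during a stressful lesson acts through these receptors on excitability, synapses and the storage of the memory. Hippocampal tissue is cut next to thalamus, neocortex and choroid plexus, so that genes of those tissues can enter a dissected sample in varying amounts.

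Thalamus and neocortex markers varied more among the Vehicle libraries than among the C108 libraries, and choroid plexus markers varied widely in both groups. The summed level of the 12 tested thalamus markers was 141 to 183 CPM (counts scaled to the library total) in C108, and 383, 721, 157 and 136 CPM in Vehicle 3, 16, 23 and 29, where the numbers are those of the sample titles. The 16 neocortex markers summed to 356 to 407 CPM in C108, against 353, 616, 366 and 515 CPM in those Vehicle libraries. The 10 choroid plexus markers summed to 43.5 to 284 CPM in C108, against 457, 962, 47.7 and 170 CPM in Vehicle. Vehicle 3 and 16 thus held the most thalamus and choroid plexus signal, Vehicle 16 and 29 the most neocortex signal, and Vehicle 23 lay within the C108 range in each. The 9 tested markers of CA1, the pyramidal field that leads hippocampal output, were present in every library, at 856 to 1124 CPM in C108 and 787, 391, 935 and 859 CPM in Vehicle. Of the thalamus markers, Shox2 read 0.0516 to 0.219 CPM in C108, against 8.21, 22.6, 0 and 0.102 CPM in Vehicle. In bulk tissue, fewer cells of a type and less RNA per cell cannot be told apart.

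**Figure D1:**
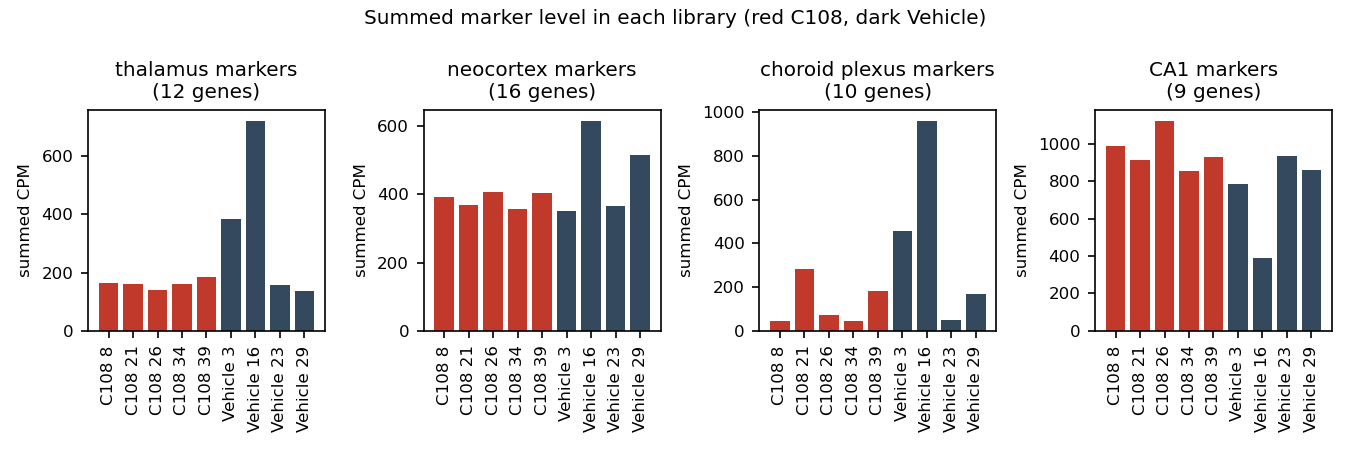
Summed CPM (y axis) of the thalamus, neocortex, choroid plexus and CA1 markers in each of the 5 C108 (red) and 4 Vehicle (dark) libraries, each bar being 1 library. Thalamus markers reach 383 and 721 CPM in Vehicle 3 and 16, against at most 183 CPM in C108, and CA1 markers are lowest in Vehicle 16, at 391 CPM.

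Few genes passed the test. At an adjusted p under 0.05 by edgeR's quasi-likelihood test, 36 of the 16735 genes differed between C108 and Vehicle (0.215%), of which 9 were higher in C108 (0.0538%) and 27 lower (0.161%). At an unadjusted p under 0.05, 1560 genes were higher (9.32%) and 1357 lower (8.11%). The rises were small and tight, with log2 fold changes from 0.39 to 0.94, while the falls had a median log2 fold change of -1.44 and scattered Vehicle values. The median coefficient of variation of the rises was 8.3% in C108 and 10.5% in Vehicle, that of the falls was 18.2% in C108 and 54% in Vehicle, and over all tested genes it was 12.9% in C108 and 12.7% in Vehicle. A small fold change passes this test only where the spread is low, so the tightness of the rises is no separate evidence. The gene nearest the threshold inside it was Mchr1 (adjusted p = 0.0487), and the nearest outside it was Tmem163 (adjusted p = 0.0538). The median standard error (SE) of a log2 fold change over all genes was 0.13.

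The number of genes that passed rested on single libraries. It was 119 without Vehicle 3, 0 without Vehicle 16, 656 without Vehicle 23 and 9 without Vehicle 29. It was 0 without C108 8, 102 without C108 21, 1 without C108 26, 0 without C108 34 and 0 without C108 39. With DESeq2 it was 294, including 35 of the 36, and with limma-voom it was 0 at a lowest adjusted p of 0.0533. Without Vehicle 3 and 16 no gene passed with edgeR, and with each library's marker scores for thalamus and neocortex as covariates none passed either. Those fits left 2129 of 17155 genes (12.4%) and 1205 of 16735 genes (7.2%) at an unadjusted p under 0.05. Without Vehicle 16 and 29 none passed and 804 of 17135 genes (4.69%) had an unadjusted p under 0.05.

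**Figure D2:**
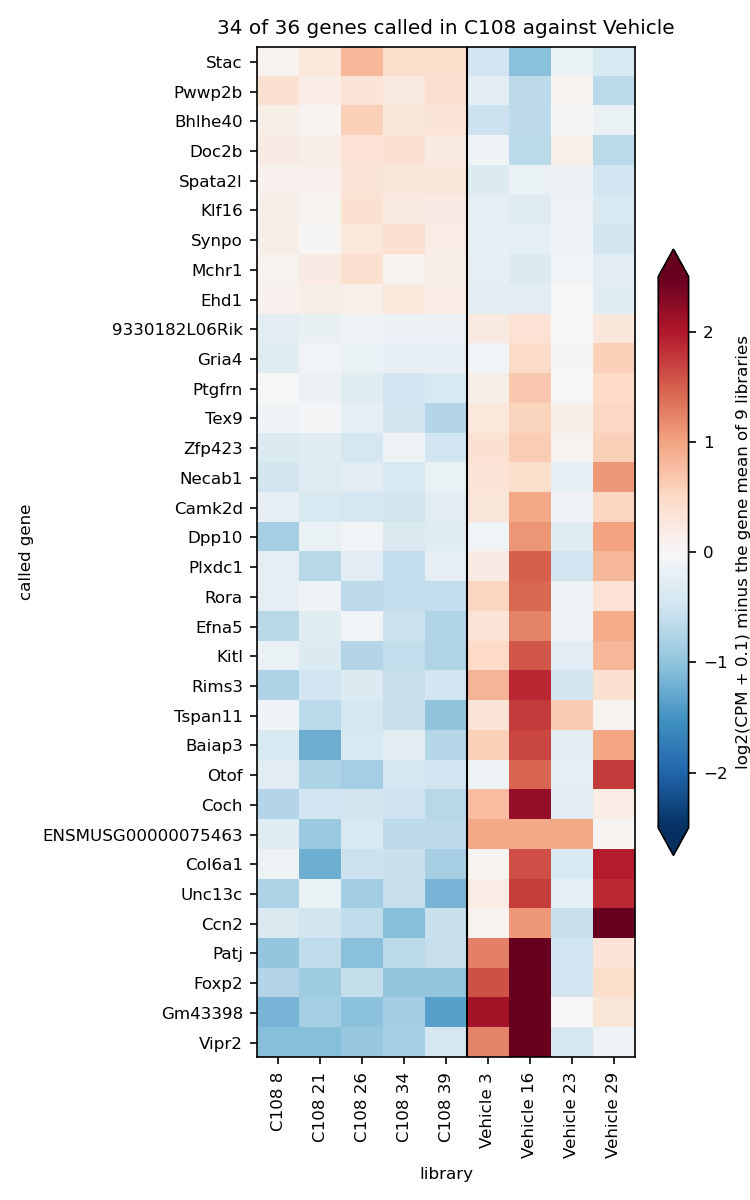
Level of 34 of the 36 genes that passed (rows) in the 5 C108 and 4 Vehicle libraries (columns), as log2(CPM + 0.1) minus the gene's mean over these 9 libraries, with red above and blue below that mean. The 9 rises on top are even across C108. Most of the 25 falls below are darkest red in Vehicle 16 or 29 and pale in Vehicle 23. For some, such as Vipr2, Gm43398, Foxp2 and Patj, Vehicle 3 is higher than Vehicle 29. ENSMUSG00000075463 is level in Vehicle 3, 16 and 23.

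The C108 and Vehicle libraries overlapped for none of the 9 genes that rose with C108, where 1.81% of all tested genes were separated in that direction. The 9 genes were chosen for a difference between these same libraries, so their separation is no separate evidence. Bhlhe40 codes for a helix-loop-helix repressor that feeds back on the circadian clock and is induced by neuronal activity. Its level was 128, 121, 174, 140 and 144 CPM in C108 8, 21, 26, 34 and 39, against 79.5, 73.7, 112 and 103 CPM in Vehicle 3, 16, 23 and 29. The lowest C108 library stood above the highest Vehicle library, by a narrow margin over Vehicle 23. The log2 fold change was 0.62 ± 0.13 (SE) with an adjusted p of 0.0384. A pair of zinc finger and chromatin genes rose beside it. Klf16, a Krüppel-like transcription factor, averaged 41.6 ± 3.45 CPM in C108 and 30 ± 2.3 CPM in Vehicle (SD, n = 5 and 4; log2 fold change 0.47 ± 0.1). Pwwp2b, which codes for a chromatin protein with a PWWP domain, averaged 37.2 ± 2.36 CPM in C108 and 23.6 ± 6.04 CPM in Vehicle (0.65 ± 0.13).

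Among the rises with a role at synapses, Synpo codes for synaptopodin, an actin-binding protein of the spine apparatus in dendritic spines. It read 186, 172, 203, 220 and 192 CPM in the C108 libraries, against 146, 142, 157 and 123 CPM in the Vehicle libraries. Every C108 value lay above every Vehicle value, and the log2 fold change was 0.45 ± 0.1. Doc2b codes for a calcium sensor of spontaneous transmitter release. It read 190, 184, 212, 215 and 193 CPM in C108, against 156, 103, 180 and 104 CPM in Vehicle. Vehicle 3 and 23 came near the C108 values and Vehicle 16 and 29 lay far below them, with a log2 fold change of 0.55 ± 0.12. Ehd1, an ATPase that returns membrane receptors to the cell surface from endosomes, read 77.1, 79.1, 77.7, 85.9 and 81.2 CPM in C108, against 58.8, 58.8, 70.5 and 57.6 CPM in Vehicle (0.39 ± 0.07).

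Stac codes for an adaptor protein that binds L-type calcium channels, and it had the largest fold of the rises. Its level was 5.42, 6.08, 9.13, 6.9 and 6.86 CPM in C108, against 3.61, 2.41, 4.52 and 3.84 CPM in Vehicle. All C108 libraries were higher, C108 26 most so, and the log2 fold change was 0.94 ± 0.19 (95% interval 0.56 to 1.32), a ratio of 1.92. Mchr1, the receptor of melanin-concentrating hormone, averaged 19.5 ± 1.85 CPM in C108 and 14.7 ± 1.16 CPM in Vehicle (0.41 ± 0.09). Spata2l, whose gene overlaps Cdk10 and other genes on the opposite strand, read 39.5, 39.4, 45.9, 44.7 and 44.5 CPM in C108, against 29, 32.5, 33.2 and 26.4 CPM in Vehicle (0.5 ± 0.1). Of the 36 genes, 34 are protein coding and 14 overlap another annotated gene, Bhlhe40 among them. The libraries were stranded, but the sources used here do not say whether the counting used strand.

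**Figure D3:**
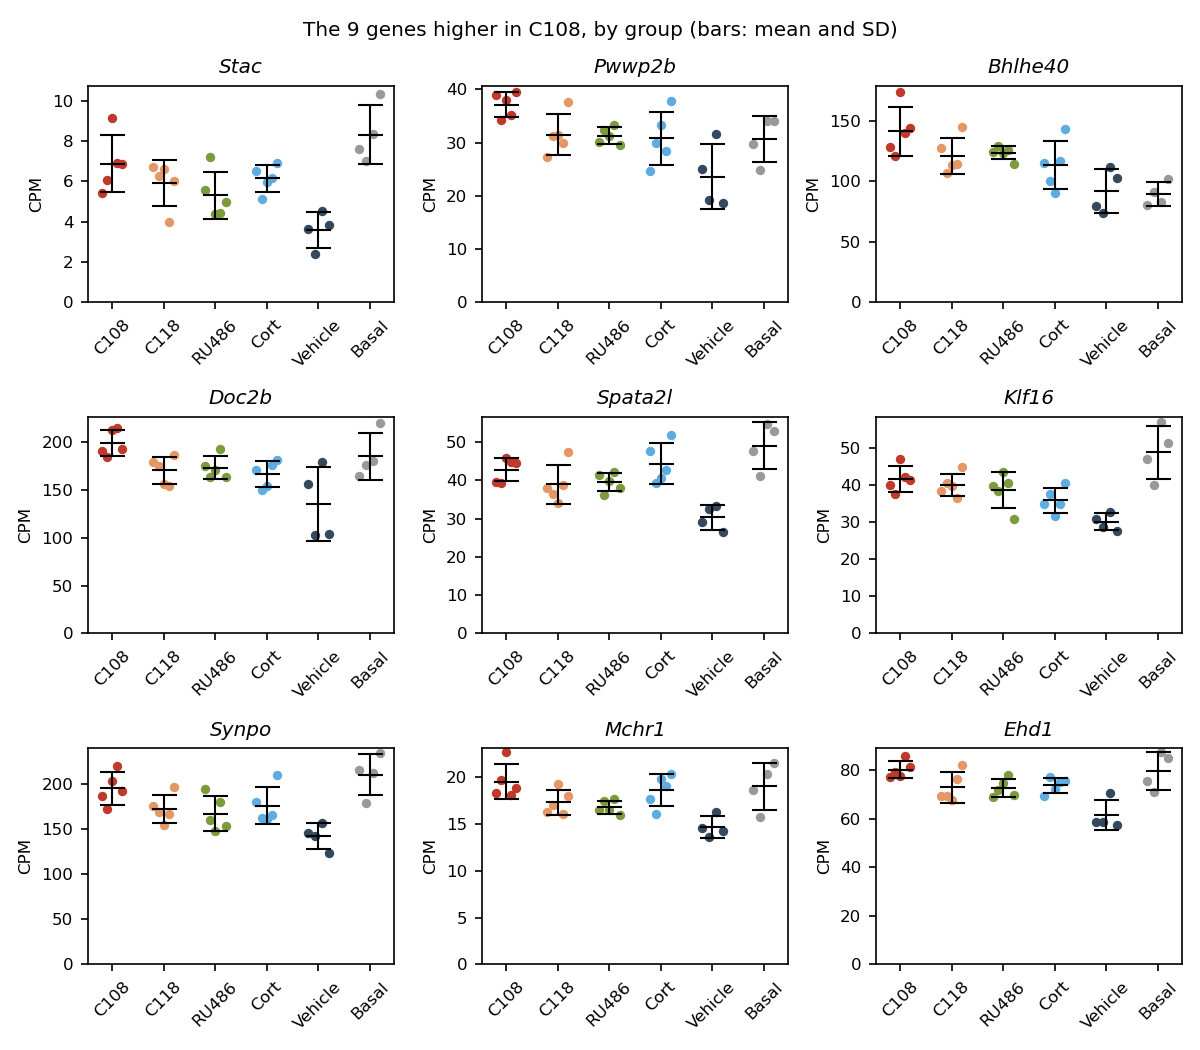
CPM (y axis) of the 9 genes that rose, with 1 point per library and bars for the mean and SD of each group. The C108 points stand above all Vehicle points in every panel, and the spread within C108 is widest for Stac and Bhlhe40 relative to their means.

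The promoters of Stac and Mchr1 are shown because they are the rises with an entry in the promoter table used here. Each line gives the 250 bases before the gene's start, read 5′ to 3′ on the gene's strand, from RefSeq on GRCm38.p6. Capitals mark AGAACA, one arm of the palindrome that the glucocorticoid receptor binds, and CACGTG, an E-box that Bhlhe40 can bind.
Stac, chr9:111690349-111690598, minus strand: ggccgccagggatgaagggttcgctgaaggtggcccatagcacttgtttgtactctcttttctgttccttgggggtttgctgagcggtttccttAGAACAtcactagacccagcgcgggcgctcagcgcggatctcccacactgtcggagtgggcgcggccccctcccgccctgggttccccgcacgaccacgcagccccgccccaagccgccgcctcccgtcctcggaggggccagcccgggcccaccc
Mchr1, chr15:81235249-81235498, plus strand: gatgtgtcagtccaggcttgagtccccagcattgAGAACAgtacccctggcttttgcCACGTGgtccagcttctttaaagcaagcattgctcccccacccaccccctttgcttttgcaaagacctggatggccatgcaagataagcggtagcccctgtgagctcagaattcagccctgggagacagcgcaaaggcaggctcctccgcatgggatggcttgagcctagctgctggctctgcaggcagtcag
Searched on both strands, AGAACA stood in 16.1% of 32851 promoters of this length. It stood in both of these and in 1 of the 17 promoters found for genes that fell, that of Patj. The full palindrome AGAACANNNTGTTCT stood in 0.00913% of all promoters and in none of these 19, and CACGTG in 6.02% of all promoters. A match in letters is a description of the sequence and no measure of binding.

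Among the 27 genes that fell with C108, several code for proteins of transmitter release and its targets. Unc13c codes for a Munc13 protein that primes synaptic vesicles. It read 8.65, 13.2, 8.15, 10 and 6.56 CPM in C108, against 17, 49.4, 12.6 and 54.3 CPM in Vehicle. Vehicle 16 and 29 were far above the rest and Vehicle 23 lay inside the C108 range, with a log2 fold change of -1.84 ± 0.33. Rims3, an active zone protein, averaged 44.4 ± 4.77 CPM in C108 and 121 ± 82.5 CPM in Vehicle (-1.44 ± 0.3), and Baiap3, a Munc13 relative of dense core vesicle release, averaged 1.54 ± 0.388 CPM in C108 and 4.44 ± 2.4 CPM in Vehicle (-1.53 ± 0.32). Otof, the calcium sensor otoferlin of hair cell synapses, averaged 0.976 ± 0.178 CPM in C108 and 3 ± 2.02 CPM in Vehicle (-1.62 ± 0.34). Its Vehicle 16 and 29 libraries were high, at 4.21 and 5.22 CPM. Vehicle 3 and 23, at 1.34 and 1.23 CPM, lay just above the highest C108 library, at 1.2 CPM. Gria4, a subunit of AMPA receptors, read 50.2, 59.3, 55.3, 53.8 and 54.4 CPM in C108, against 59.4, 86.6, 60.7 and 94.5 CPM in Vehicle. The groups were separated narrowly, with Vehicle 3 and 23 just above the highest C108 library, and the log2 fold change was -0.46 ± 0.1.

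Other genes that fell code for receptors, kinases, ligands and channel subunits. Vipr2, a receptor of the peptides VIP and PACAP, read 0.328 to 0.559 CPM in C108, against 2.01, 11.3, 0.558 and 0.716 CPM in Vehicle, so that its log2 fold change of -3.18 ± 0.67 came mainly with Vehicle 16. Camk2d, the delta subunit of the kinase CaMKII, had the lowest p of all genes. It read 31.5, 27.9, 27.1, 26.3 and 30 CPM in C108, against 44.7, 70.2, 33.9 and 52.3 CPM in Vehicle. All 4 Vehicle libraries were higher, and the log2 fold change was -0.82 ± 0.14 with an adjusted p of 0.0327. Dpp10, an auxiliary subunit of Kv4 potassium channels (-0.89 ± 0.19), and Necab1, a neuronal calcium-binding protein (-0.8 ± 0.15), fell by these log2 amounts with overlapping libraries. Kitl, the ligand of the receptor KIT, averaged 14.9 ± 2.77 CPM in C108 and 36.9 ± 19 CPM in Vehicle (-1.31 ± 0.26), and Efna5, the guidance ligand ephrin-A5, averaged 2.53 ± 0.521 CPM in C108 and 5.67 ± 2.34 CPM in Vehicle (-1.17 ± 0.21).

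Transcription factor, matrix and membrane genes were also among the falls. Rora, a nuclear receptor that activates clock genes, read 43.3, 47, 32.5, 33.3 and 33.6 CPM in C108, against 75.1, 140, 48.5 and 66 CPM in Vehicle. No Vehicle library overlapped, although Vehicle 23 came within a small margin of C108 21, and the log2 fold change was -1.12 ± 0.22. Foxp2, a forkhead factor known for its role in circuits of vocal learning, averaged 0.861 ± 0.117 CPM in C108 and 4.68 ± 4.13 CPM in Vehicle (-2.44 ± 0.47). Zfp423, a zinc finger factor, averaged 6.53 ± 0.671 CPM in C108 and 11.1 ± 1.86 CPM in Vehicle (-0.77 ± 0.14), with the groups well apart. Ccn2, a matrix protein that marks the deepest neurons of the neocortex, read 1.01 to 1.7 CPM in C108, against 2.38, 4.82, 1.45 and 12.9 CPM in Vehicle (-1.91 ± 0.42). The collagen gene Col6a1 (-1.79 ± 0.36) and Coch, which codes for the matrix protein cochlin and was listed here as a CA3 marker (-1.66 ± 0.34), fell as well. So did Patj, a scaffold of the Crumbs polarity complex, at 3.41 ± 0.502 CPM in C108 and 16.5 ± 16.4 CPM in Vehicle (-2.28 ± 0.48).

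The tetraspanin gene Tspan11 (-1.51 ± 0.33), Plxdc1 (-1.11 ± 0.23), Tex9 (-0.69 ± 0.15), the immunoglobulin superfamily gene Ptgfrn (-0.6 ± 0.13) and 9330182L06Rik (-0.39 ± 0.08) fell too. Of the genes that fell, 2 are not protein coding. Gm43398, on chromosome 5 from 143395503 to 143398244 (GRCm38), averaged 0.662 ± 0.11 CPM in C108 and 5.37 ± 4.78 CPM in Vehicle (-3.01 ± 0.61). It lies 3351 bases past the end of the thalamus marker Grid2ip on the same strand. ENSMUSG00000075463, a processed transcript that overlaps Tmtc4 and Ggact, read 0.219, 0.109, 0.206, 0.152 and 0.152 CPM in C108, against 0.671, 0.667, 0.669 and 0.307 CPM in Vehicle. Its Vehicle libraries did not follow the thalamus markers: Vehicle 23 was level with Vehicle 3 and 16. All these levels lie near the floor. The gene did not pass the count filter when the C108 and Vehicle libraries were fitted alone, so that fit holds no value for it. In the fit to all libraries its log2 fold change was -1.74 ± 0.38.

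Vehicle 23 was the highest Vehicle library for all 9 rises, where it was so for 26.6% of all tested genes, and the lowest for 24 of the 27 falls, against 25.1% of all genes. Vehicle 16 was the highest for 20 of the 27 falls (21.2% of all genes), Vehicle 29 for 6 (27.9%) and Vehicle 3 for 1 (24.3%). The groups did not overlap for 15 of the 27 falls, where 1.32% of all tested genes were separated in that direction. The falls too were chosen by these libraries, so this count describes them and is no separate evidence. In 11 of the 12 that did overlap, Vehicle 23 was the sole library to reach the C108 range, and Dpp10 overlapped with Vehicle 3 as well.

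How far the fold changes moved with the neighbouring tissue was seen from 3 further fits, with the marker scores of thalamus and neocortex as covariates, without Vehicle 3 and 16, and without Vehicle 16 and 29. All 36 genes kept their sign in each fit and none passed an adjusted p of 0.05. With the covariates, the rises retained a median of 83.5% of their log2 fold change (71.7% to 98.1%) and the falls a median of 57% (19.4% to 91.6%). Without Vehicle 3 and 16, the medians were 86.6% for the rises (63.9% to 105%) and 80.7% for the falls (21.1% to 122%). Without Vehicle 16 and 29, they were 81.2% for the rises (44.3% to 92.6%) and 54.2% for the falls (15.9% to 112%). In that last fit Doc2b had the lowest share of the rises, at a log2 fold change of 0.25, and Dpp10 that of the falls, at -0.14. An unadjusted p under 0.05 in all 3 fits was met by the 9 rises and 17 of the 27 falls, against 0.866% and 0.741% of all tested genes in each direction. These fits share libraries with the test that chose the genes and are therefore no separate evidence. Vipr2, Foxp2, Patj, Coch, Ccn2, Col6a1, Otof, Plxdc1, Dpp10 and Gria4 did not meet it. The log2 fold change of Vipr2 was -0.62 with the covariates, Patj had -0.58 and Rims3 -0.38. Camk2d kept -0.43 ± 0.1 with the covariates and -0.59 without Vehicle 3 and 16. Spata2l had 0.49 ± 0.12 with the covariates, 0.52 without Vehicle 3 and 16 and 0.46 without Vehicle 16 and 29.

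**Figure D4:**
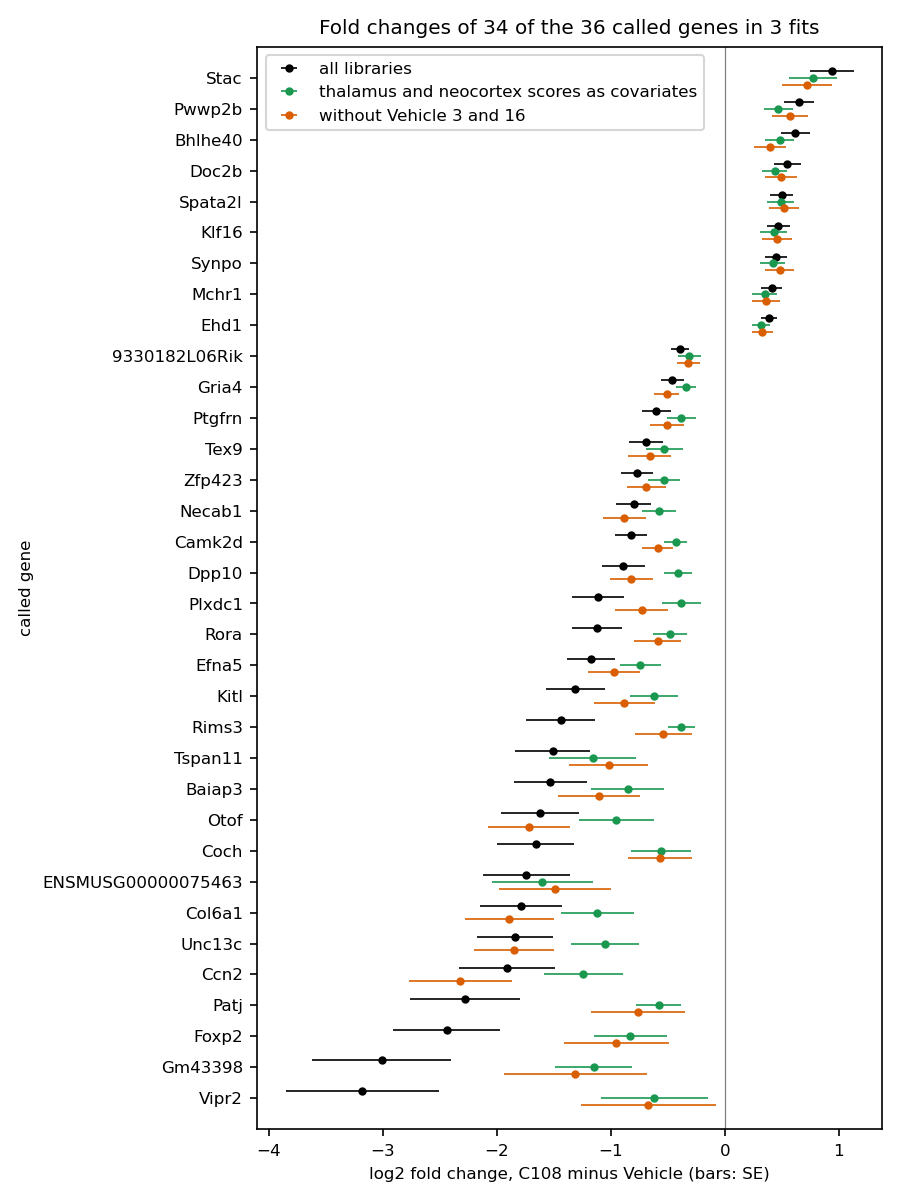
Log2 fold change, C108 minus Vehicle (x axis, bars are SE), of 34 of the 36 genes in the fit to all libraries (black), with both marker scores as covariates (green) and without Vehicle 3 and 16 (orange). The 9 rises keep most of their size in each fit, while large falls such as Vipr2, Patj and Foxp2 shrink towards 0.

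Marker lists of neighbouring tissue differed in the same libraries, with few or no members passing. Of the 12 thalamus markers none passed and all 12 had negative fold changes, their median being -1.57 on the log2 scale, against 0 over all tested genes. Tcf7l2, a factor of thalamic neurons, read 3.45, 3.28, 2.42, 3.09 and 2.74 CPM in C108, against 24.7, 37.5, 3.68 and 2.25 CPM in Vehicle (log2 fold change -2.51 ± 0.67, adjusted p = 0.0899). The median was 0.04 with the covariates, which are made from these markers, and -0.01 without Vehicle 3 and 16. Of the 16 neocortex markers, Ccn2 passed and the median was -0.44. Cplx3, a complexin of deep cortical neurons, read 1.73 to 3.61 CPM in C108, against 1.5, 3.95, 2.68 and 13.7 CPM in Vehicle. Of the 10 choroid plexus markers none passed, and the median of -1.7 turned to 0.47 with the covariates and 0.28 without Vehicle 3 and 16. Ttr, the transport protein that choroid plexus makes in abundance, averaged 80.8 ± 92.2 CPM in C108 and 335 ± 362 CPM in Vehicle (-2.05 ± 1.53). None of the 5 tested habenula markers passed, with a median of -0.28. How far uneven tissue of these regions carries the falls was not tested beyond these fits.

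Of the markers of the hippocampal fields, Coch of the CA3 list was the sole member that passed. Over the CA1 markers the median fold change was 0.48 on the log2 scale, with 7 of 9 positive and none past the threshold. Wfs1, a membrane protein of the endoplasmic reticulum that marks CA1, averaged 236 ± 20.3 CPM in C108 and 142 ± 90.4 CPM in Vehicle (0.73 ± 0.26, adjusted p = 0.166). It read 196, 74.6, 241 and 57.2 CPM in Vehicle 3, 16, 23 and 29. Vehicle 29 was thus low for Wfs1, although its summed CA1 markers lay within the C108 range. That sum is no measure of even CA1 content, because its members went both ways in Vehicle 29. Lefty1, at 4.81 CPM against 13.9 to 20.6 CPM in C108, lay below the C108 range, as did Pou3f1 and Fibcd1. Ccn3, at 161 CPM against 48.8 to 80.9 CPM in C108, lay above it, as did Dcn and Man1a. The other members lay within it. Fibcd1 read 182 to 240 CPM in C108, against 160, 64.6, 191 and 146 CPM in Vehicle. Vehicle 16 was the lowest library there, and Vehicle 3 and 29 also lay below the C108 range. Dcn, listed with CA1 and also a gene of fibroblasts and meninges, read 1.32 to 3.5 CPM in C108, against 11.5, 5.08, 2.4 and 39.7 CPM in Vehicle (-2.73 ± 0.61, adjusted p = 0.0576). Of the 12 dentate gyrus markers 11 were positive with a median of 0.12 and none passed. Lct, the gene of lactase, read 102 to 137 CPM in C108, against 105, 87, 107 and 26.5 CPM in Vehicle, with Vehicle 29 far below the rest. The CA3 median was 0.15 while Coch fell (-1.66), and the CA2 median was -0.16 with 5 of 7 negative, or 0.22 with the covariates and 0.49 without Vehicle 3 and 16. Vehicle 29 had the lowest summed level of 3 of these lists. Its CA2 markers summed to 203 CPM, against 320 to 390 CPM in C108. Its CA3 markers summed to 322 CPM, against 378 to 483 CPM, and its dentate gyrus markers to 836 CPM, against 980 to 1221 CPM. The other Vehicle libraries lay within the C108 range in each. Scores of these fields were not used as covariates. None of the 10 interneuron markers passed, with a median of 0.08.

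None of the 34 listed target genes of the glucocorticoid receptor passed between C108 and Vehicle, while the threshold was met by 0.215% of all genes. At an unadjusted p under 0.05, 4 were higher and 12 lower, where 9.32% of all genes were higher and 8.11% lower at that level. The median log2 fold change was -0.25, against 0 over all genes. Fkbp5 codes for a co-chaperone of the receptor that is among its most sensitive targets. It read 133, 120, 134, 119 and 150 CPM in C108, against 124, 115, 137 and 144 CPM in Vehicle. The groups covered the same range, and the log2 fold change was 0.01 ± 0.09 with a 95% interval of -0.18 to 0.21 (adjusted p = 0.956). Fkbp5 averaged 123 CPM in C118, 114 CPM in RU486, 167 CPM in Cort and 67.5 CPM in Basal libraries. The 95% interval lay wholly within 0.5 on either side of 0 for 14 of the 34 targets.

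Other targets had lower values with C108 without passing. Cdkn1a, the cell cycle inhibitor p21, read 38.9, 33.8, 17.5, 8.88 and 25.4 CPM in C108, against 51.8, 45.9, 40.2 and 39.6 CPM in Vehicle. Its groups did not overlap, C108 8 came within 1 CPM of the lowest Vehicle library, and the log2 fold change was -0.84 ± 0.29 (adjusted p = 0.158). Cdkn1a averaged 24.9 CPM in C108, 20.6 CPM in C118, 15.5 CPM in RU486, 54.8 CPM in Cort, 44.4 CPM in Vehicle and 7.43 CPM in Basal libraries. Angptl4, an inhibitor of lipoprotein lipase, read 1.48, 1.48, 1.13, 0.863 and 0.356 CPM in C108, against 3.67, 2.15, 1.56 and 3.22 CPM in Vehicle (-1.33 ± 0.33, adjusted p = 0.0704). Tsc22d3, which codes for the anti-inflammatory mediator GILZ, averaged 92.3 ± 14.6 CPM in C108 and 121 ± 19.1 CPM in Vehicle (-0.39 ± 0.16, adjusted p = 0.2). Pdk4, a kinase that shuts off pyruvate oxidation, had -0.58 ± 0.18, and the salt transport kinase gene Sgk1 -0.24 ± 0.22. On the upper side, Cebpd, a bZIP factor, had the highest estimate of the list at 0.41, and Bcl6, a transcriptional repressor, had 0.34 ± 0.13.

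**Figure D5:**
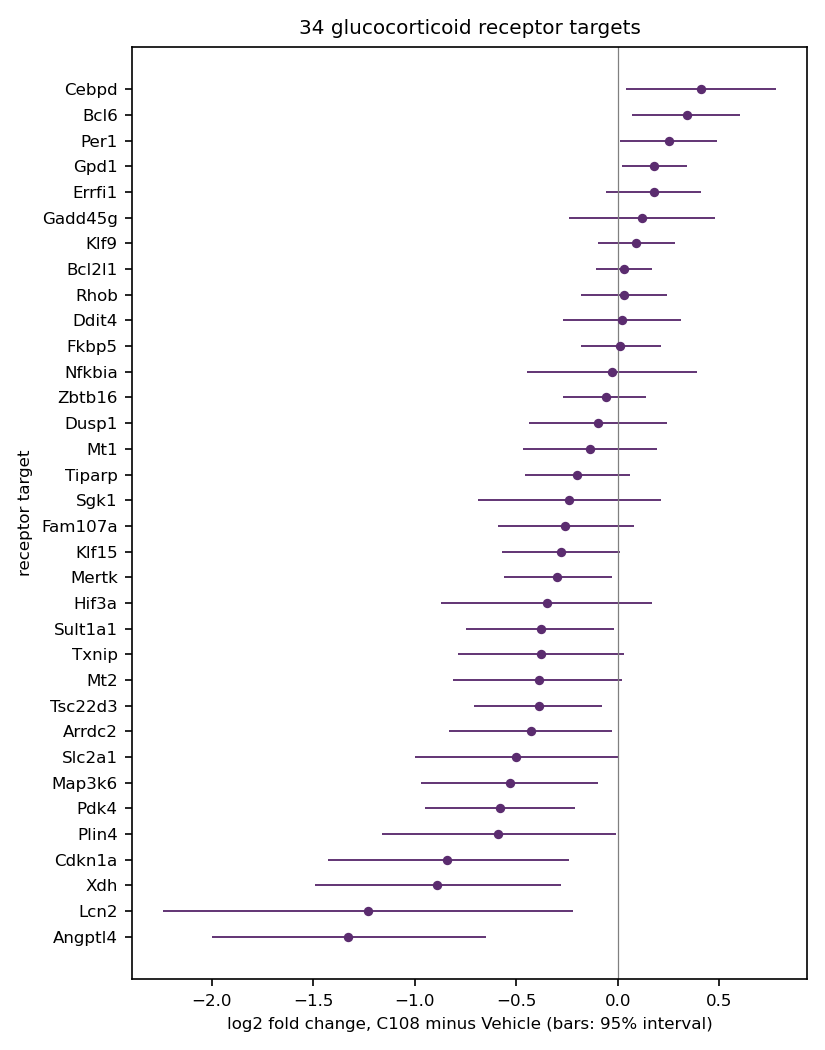
Log2 fold change, C108 minus Vehicle (x axis), of the 34 receptor targets with their 95% intervals, sorted by estimate. Estimates run from -1.33 (Angptl4) to 0.41 (Cebpd), Fkbp5 lies at 0.01, and 12 intervals lie wholly below 0 against 4 wholly above.

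The genes of the receptors themselves did not pass. Nr3c1, the glucocorticoid receptor, averaged 85.9 ± 6.31 CPM in C108 and 82.7 ± 3.78 CPM in Vehicle (log2 fold change 0.05 ± 0.09, adjusted p = 0.765). Nr3c2, the mineralocorticoid receptor, read 347, 289, 297, 332 and 373 CPM in C108, against 344, 211, 306 and 182 CPM in Vehicle. Vehicle 16 and 29 were low and the other 2 lay within the C108 range, with a log2 fold change of 0.33 ± 0.13 (adjusted p = 0.213). None of the 16 tested genes of steroid receptors and their chaperones passed. Of the chaperones, Hsp90ab1 averaged 1901 ± 418 CPM in C108 and 1479 ± 85.3 CPM in Vehicle (0.36 ± 0.16).

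Immediate early genes, which neurons switch on within minutes of activity, gave no member that passed among the 27 tested. Of the 27, 21 were positive, and 9 were higher at an unadjusted p under 0.05 and none lower, where 9.32% of all genes were higher and 8.11% lower at that level. Their median was 0.25 on the log2 scale (0.29 with the covariates, 0.31 without Vehicle 3 and 16). Egr4, a zinc finger factor, read 13.5, 13.8, 20.1, 15.5 and 15.9 CPM in C108, against 10.4, 6.67, 12.3 and 5.83 CPM in Vehicle. The groups did not overlap, and the log2 fold change was 0.84 ± 0.28 (adjusted p = 0.15). Nr4a1, an orphan nuclear receptor, averaged 61.9 ± 19.2 CPM in C108 and 34.5 ± 7.44 CPM in Vehicle (0.84 ± 0.26, adjusted p = 0.125). Arc, a regulator of AMPA receptor removal, read 76.3, 120, 184, 132 and 73.2 CPM in C108, against 63.3, 62.9, 99.5 and 56.1 CPM in Vehicle (0.74 ± 0.34). Vehicle 23 stood inside the C108 range of Arc. Npas4 (0.77 ± 0.4) and Fos (0.56 ± 0.42), activity-driven transcription factors, had wide errors.

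Of the 20 clock genes tested, Bhlhe40 rose and Rora fell. With thalamus and neocortex scores as covariates, the log2 fold change was 0.48 ± 0.13 for Bhlhe40 and -0.48 ± 0.15 for Rora, and neither passed. The output factor Dbp read 29.6, 26.2, 31.8, 33.3 and 27.7 CPM in C108, against 19.3, 21.5, 24.8 and 21.7 CPM in Vehicle, with no overlap (log2 fold change 0.44 ± 0.15, adjusted p = 0.153). Per1, a clock gene that the receptor also drives, averaged 63.7 ± 2.77 CPM in C108 and 53.6 ± 4.17 CPM in Vehicle (0.25 ± 0.12), and Per2 had 0.25 ± 0.11. Bhlhe41, the close relative of Bhlhe40, had 0.22 ± 0.1. The groups were separate for these 3 genes as well, and 5 of the 20 were higher and separate, beside 1.81% of all genes. Nr1d1, the repressor REV-ERB alpha, averaged 76.1 ± 5.85 CPM in C108 and 57.7 ± 11.3 CPM in Vehicle (0.4 ± 0.12, adjusted p = 0.109). The list's median was 0.09, and -0.01 without Vehicle 3 and 16.

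Genes of synapses and ion channels were mixed. Of the 14 AMPA receptor genes Gria4 fell and no other passed, while Gria1, the subunit that dominates in CA1, averaged 1480 ± 142 CPM in C108 and 1151 ± 179 CPM in Vehicle (0.36 ± 0.1, adjusted p = 0.0981). Of the 18 spine and postsynaptic genes Synpo rose and the median was 0.18. Grin1, the obligatory subunit of NMDA receptors, read 631, 514, 618, 634 and 730 CPM in C108, against 541, 401, 554 and 335 CPM in Vehicle (0.45 ± 0.15, adjusted p = 0.139). Of the 18 calcium channel genes Stac rose. The auxiliary subunit Cacnb1 read 113 to 142 CPM in C108, against 85 to 115 CPM in Vehicle (0.4 ± 0.1, adjusted p = 0.074), and the T-type channel gene Cacna1g read 27 to 39.6 CPM in C108, against 54.2, 64.7, 33.4 and 55.8 CPM in Vehicle (-0.58 ± 0.16, adjusted p = 0.0981).

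Glial, vascular and blood genes gave no member that passed. All 13 astrocyte markers had negative fold changes with a median of -0.26, and their summed level was 3815 to 6576 CPM in C108 and 5572 to 7340 CPM in Vehicle. Agt, the angiotensinogen gene of astrocytes, averaged 9.05 ± 1.85 CPM in C108 and 17.7 ± 7.43 CPM in Vehicle (-0.97 ± 0.26, adjusted p = 0.0855). Medians were -0.21 for myelin, -0.05 for microglia, -0.58 for endothelial and -0.39 for pericyte markers. The 5 blood markers were all negative with a median of -0.79, and Alas2, the first enzyme of haem synthesis in red cells, averaged 0.727 ± 0.135 CPM in C108 and 1.5 ± 0.413 CPM in Vehicle, with no overlap (-1.04 ± 0.27, adjusted p = 0.0775). The 13 mitochondrially encoded genes had a median of -0.47 and summed to 33836 to 82487 CPM in C108 and 51545 to 85217 CPM in Vehicle. The 15 interferon-stimulated genes had a median of -0.21. C108 39 held the lowest summed level of all 9 libraries in several of these lists at once. Its astrocyte markers summed to 3815 CPM, against 4773 to 6576 CPM in the other C108 libraries, its endothelial markers to 47.1 CPM, against 66.3 to 129 CPM, and its mitochondrially encoded genes to 33836 CPM, against 46253 to 82487 CPM. Without C108 39, a setting added after seeing the data, the medians were -0.18 for astrocyte markers (12 of 13 negative), -0.39 for endothelial markers, -0.25 for pericyte markers, -0.67 for blood markers and -0.32 for mitochondrially encoded genes, and no member passed.

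The other conditioned groups allow the same genes to be read against libraries other than Vehicle, although the genes were chosen for a difference that these C108 libraries took part in. The C118, RU486 and Cort means each lay on the C108 side of the Vehicle mean for all 9 rises and all 27 falls. The Basal mean did so for 8 of the 9 rises and all 27 falls. The Vehicle mean was thus the outermost of the conditioned groups for these genes, which were chosen by a contrast with these Vehicle libraries. Another mean could lie close to it, as for Ptgfrn, at 20 CPM in Vehicle, 19 CPM in Cort and 13.2 CPM in C108. None of the 16735 genes passed with edgeR between C108 and C118, RU486 or Cort, with 401 (2.4%), 961 (5.74%) and 817 (4.88%) genes at an unadjusted p under 0.05, and no other tool was run on these 3 comparisons. At that level, 14 of the 27 falls and 4 of the 9 rises differed between C108 and Cort. Against RU486 it was 1 fall and 5 rises, and against C118 3 falls and 0 rises. For Bhlhe40 the log2 fold change of C108 was 0.22 ± 0.12 over C118, 0.19 ± 0.12 over RU486 and 0.32 ± 0.12 over Cort, with 95% intervals of -0.02 to 0.46, -0.05 to 0.43 and 0.08 to 0.56. Its level averaged 141 CPM in C108, 121 CPM in C118, 124 CPM in RU486, 113 CPM in Cort, 92.1 CPM in Vehicle and 89.3 CPM in Basal libraries. For Camk2d the log2 fold change was -0.12 ± 0.13 from C118, -0.11 ± 0.13 from RU486 and -0.36 ± 0.13 from Cort. Thalamus signal was uneven in Cort too, with marker scores of 1.358, 1.06 and 1.097 in Cort 4, 11 and 30. Cort 17 and 36 had -0.133 and -0.592, and C108 scores ran from -0.719 to -0.439. With thalamus and neocortex scores as covariates, Bhlhe40 differed from Cort by 0.16 ± 0.12 (95% interval -0.09 to 0.42). Camk2d differed from Cort by -0.19 ± 0.1 in that fit. Stac differed by 0.22 ± 0.17 from C118, with an interval of -0.13 to 0.56. Doses are not given, so that these values stand side by side without matching. Against Basal mice, which also lacked conditioning, 1010 genes passed (6.04%). Of the genes named above, Bhlhe40 was higher in C108 (0.66 ± 0.13, adjusted p = 0.00235) while ENSMUSG00000075463 was lower (-1.5 ± 0.39, adjusted p = 0.0201). The latter averaged 0.168 CPM in C108 and 0.491 CPM in Basal libraries, near the floor in both. Stac, at 6.88 CPM in C108 and 8.31 CPM in Basal libraries, had a log2 fold change of -0.27 ± 0.17 there, and Synpo -0.11 ± 0.1. With thalamus and neocortex scores as covariates, 345 genes passed with edgeR against Basal (2.06%). Bhlhe40 passed in that fit (0.58 ± 0.12, adjusted p = 0.0125), and so did Ptgfrn (0.47 ± 0.12, adjusted p = 0.0424). ENSMUSG00000075463 did not (-1.5 ± 0.41, adjusted p = 0.0528).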

How the data were processed

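The authors deposited raw counts per Ensembl gene for 28 libraries, made with HTSeq 0.6.1 on mm10 per the submitters' processing notes, which also name FastQC and MultiQC. An aligner and an annotation release were not given in the sources used here. Per the labels, mRNA was enriched from total RNA and sequenced from both ends as stranded libraries. Totals over genes were 18618773 to 20154231 counts in C108 and 18622214 to 19142347 in Vehicle, so that spread between libraries, more than counting, limits precision for all but low genes. The 5 summary rows that name no gene were dropped; reads ambiguous between genes were 1.303% to 2.412% in C108 and 1.002% to 2.333% in Vehicle.

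The filterByExpr function (minimum count 10, minimum total 15) left 16735 of 50686 genes, with at least 99.9% of gene counts. A quasi-likelihood model of edgeR 4.0.16 (robust, R 4.3.3, trimmed mean of M values) was fitted to the 6 groups with 22 residual degrees of freedom; tests were two-sided, with Benjamini-Hochberg adjustment over all tested genes. CPM uses the adjusted library sizes. SE is the log2 fold change over the square root of F. The script was tested on simulated data. Alternatives used DESeq2 1.42.0 and limma 3.58.1, other normalization, filters, covariates and libraries. A marker score is the mean centred log2 CPM (prior count 2) of a list. Coordinates come from GENCODE M21.

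The genes that passed, the always-named receptor and activity genes and up to 4 members per list with the lowest p could be named. Wfs1, Ccn3, Man1a, Bcl6, Cebpd, Per2, Bhlhe41, Egr3 and Slc17a6 were named after their values were seen. A few genes that could be named are not reported here. The members and the 25 lists were chosen with earlier results of these data known, and the need for an unadjusted p under 0.05 in all 3 fits on neighbouring tissue was set after seeing the data. The p-values set each difference against the spread between libraries within the 6 groups. The labels do not say that libraries come from separate mice, so that spread may be technical in part. Duplicate deposits were looked for within groups and none was found: the chi-square of a pair was at least 5.94 times its degrees of freedom.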

Additional observations from a re-analysis of the deposited data

Results flagged for a closer look

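In 7 of 148 groups of values, 1 library stood far from the others of its group by Dixon's criterion, which chance meets in about 1 in 20 groups. Vipr2 read 11.3 CPM in Vehicle 16, with the next at 2.01 CPM. ENSMUSG00000075463 read 0.307 CPM in Vehicle 29, below the next lowest at 0.667 CPM. Ehd1 read 70.5 CPM in Vehicle 23, with the next at 58.8 CPM, and Arc read 99.5 CPM in Vehicle 23, with the next at 63.3 CPM. Pdk4 read 17.4 CPM in C108 21, with the next at 11.1 CPM, and 23.9 CPM in Vehicle 29, with the next at 15.5 CPM. Egr3 read 21.8 CPM in Vehicle 29, below the next lowest at 36.7 CPM.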

How the results depend on the processing

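The number of genes that passed between C108 and Vehicle was 36 with RLE normalization as with the main one, and 38 with a filter at a mean of 1 CPM. It was 20 with no filter, 7 with the sample number as a covariate, 294 with DESeq2 and 0 with limma-voom (2976 genes at an unadjusted p under 0.05), also without its robust option (3009), an alternative chosen after seeing the data. It was 0 with the C108 and Vehicle libraries alone (2269), with thalamus and neocortex scores as covariates (1205), without Vehicle 3 and 16 (2129) and without Vehicle 16 and 29 (804). Leaving out a single library gave 0 to 656. The cause of these shifts was not tested. Of 718 values of the 36 genes under the alternatives, none changed sign and 477 no longer passed. Of 797 values of other named genes, 15 changed sign and 37 newly passed. Fkbp5 had log2 fold changes of -0.0 with C108 and Vehicle alone, -0.06 with the covariates, -0.04 with the sample number and -0.1 without Vehicle 3 and 16, and -0.05 to 0.07 with single libraries left out. Ttr turned to 1.11 with the covariates and 0.18 without Vehicle 3 and 16, Shox2 to 0.83 and 0.9. Tcf7l2 had 0.02 without Vehicle 3 and 16, Slc17a6 0.07 with the covariates and Cplx3 0.2 without Vehicle 16 and 29. List medians moved to 0.04 with the covariates and -0.01 without Vehicle 3 and 16 for thalamus, -0.04 with the covariates for neocortex, 0.47 and 0.28 for choroid plexus, 0.22 and 0.49 for CA2, and -0.01 without Vehicle 3 and 16 for clock genes. No paired analysis was possible because each sample number occurs once and the groups share none. With 5 and 4 libraries the median 95% interval reached 0.26 on either side of a log2 fold change, and smaller differences were not detectable for most genes. That interval carries no adjustment for the number of genes. The last gene that passed had an unadjusted p of 0.000105 by edgeR's quasi-likelihood test, so differences larger than 0.26 could also be missed for most genes.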
